A study of Mus musculus with 2 samples.

Results

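Osteoclast-like cells at the injury site were defined as barcodes that passed quality limits (500 genes, 1000 UMIs, mitochondrial UMIs no higher than 10%) and were chosen by their measured levels of 3 kinds of transcripts. The summed myeloid genes Tyrobp, Fcer1g and Ctss had to reach 5 counts per 10000 UMIs of the cell (CP10K), Acp5 had to reach 5 CP10K, and Ocstamp, Dcstamp, Calcr and Atp6v0d2 together had to give at least 3 UMIs. By this rule 72 of 16430 kept barcodes were members, 26 of 7190 in the irradiated library and 46 of 9240 in the control library. They were set against other Csf1r-positive cells, which had at least 2 UMIs of Csf1r and Acp5 under 1 CP10K, 1831 in the irradiated and 1459 in the control library. Csf1r, the CSF1 receptor, reached 2 UMIs in 25 of 26 irradiated and 45 of 46 control members.

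The irradiated library came from male C57BL/6 mice (C57BL/6J in the protocol) aged 8 to 10 weeks with a dorsal burn of 30% of the body surface and transection of the Achilles tendon, whose injury had received 7 Gy in 1 dose, with the beam limited by a 2 cm collimator. The control library came from mice of the same strain, sex, age and injury without radiation. Both were unsorted cells of the injury site, digested with collagenase and dispase and passed through a cell strainer, 7 days after injury, when such sites are on the way to heterotopic ossification, the formation of bone in soft tissue. Per the labels, arms of 10 mice were irradiated on postoperative day 1 or 3. The series text points to day 3 in uncertain wording, and how many mice each library pooled is not stated. The study asks how radiotherapy acts on the cells of such sites. With 1 library per group no test between conditions can be made, and each difference below describes these 2 libraries.

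Osteoclasts are the cells that resorb bone. They form from Csf1r-positive precursors of the monocyte lineage under CSF1 and RANKL, switch on the transcription factor NFATc1, and fuse into large multinucleated cells. A mature osteoclast attaches to mineral through integrins, pumps protons into the sealed space with a V-ATPase, and digests the matrix with cathepsin K and MMP9. Whether the members had 1 or several nuclei was not measured.

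The irradiated library held 8302 barcodes with 111753092 UMIs and the control library 11369 barcodes with 180080740 UMIs. The quality limits kept 86.6% and 81.3% of them, and the mitochondrial limit was passed by 6.13% of irradiated and 14.9% of control barcodes. The 2 libraries shared 32 barcode sequences, 23 of them kept, and none was a member. The members summed to 747451 UMIs in the irradiated and 1108113 UMIs in the control library. A member held 10050 to 50153 UMIs (median 26075.5) in the irradiated library and 2934 to 82596 UMIs (median 22948.5) in the control library, against medians of 10749 and 8986 in other Csf1r-positive cells. All intervals below are 95% intervals that cover counting error only.

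Of the 5 genes given as marks of these cells, Calcr, the calcitonin receptor, was almost absent, with 0 UMIs in irradiated and 1 UMI in control members. The panel was therefore met through Atp6v0d2, Ocstamp and Dcstamp. Atp6v0d2, a V-ATPase subunit needed for fusion, had a UMI in 24 of 26 irradiated members (0 to 18.5 CP10K, median 8.07) and in 46 of 46 control members (0.543 to 25.4 CP10K, median 8.08). Ocstamp, a membrane protein of fusion, was seen in 20 irradiated members (highest 5.82 CP10K, median 1.54) and in 31 control members (highest 5.52 CP10K, median 0.883). Dcstamp, its relative, was seen in 14 irradiated and 26 control members, with medians of 0.290 and 0.651 CP10K. Acp5, tartrate-resistant acid phosphatase, ran from 5.02 to 83.8 CP10K (median 26.6) in irradiated and from 5.12 to 157 CP10K (median 17.2) in control members. These values chose the cells and are given as a description.

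Genes that the rule did not use were checked next. Ctsk, cathepsin K, was seen in 21 of 26 irradiated members (0 to 209 CP10K, median 54.2) and in 43 of 46 control members (0 to 252 CP10K, median 32.8). Mmp9, the gelatinase, was seen in 18 irradiated members (highest 114 CP10K, median 3.55) and in 34 control members (highest 174 CP10K, median 7.33). Nfatc1 was seen in 25 irradiated members (highest 20.6 CP10K, median 6.12) and in 42 control members (highest 17.4 CP10K, median 5.15). Ctsk was thus missing from 5 irradiated and 3 control members and Mmp9 from 8 and 12, and the ranges of the libraries overlap for all 3 genes. Tcirg1, the osteoclast V-ATPase a3 subunit, was seen in every member of both libraries. Among other Csf1r-positive cells, which were shallower, Tcirg1 was seen in 72.6% of irradiated and 61.2% of control cells. There Nfatc1 was seen in 35.1% and 37.6%, Ctsk in 13.7% and 22.5%, and Mmp9 in 9.28% and 9.46%. The integrin subunit Itgb3 was seen in 11 irradiated and 14 control members, and the receptor Oscar in 10 and 15. Adgre1, which encodes the macrophage protein F4/80, was seen in 4 irradiated and 9 control members, and the mannose receptor Mrc1 in 3 and 10.

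Some of these genes were also read in keratin-high barcodes, 645 in the irradiated library (median 21910 UMIs) and 1002 in the control library (median 18110.5 UMIs). Barcodes with a UMI of Tyrobp, Fcer1g, Ctss or Ptprc were left out of this class. That choice removes barcodes with free myeloid RNA in advance, so the shares below do not measure such RNA. Ctsk had a UMI in 5.12% of the irradiated and 14.3% of the control ones, and Mmp9 in 1.55% and 3.69%. Acp5 had a UMI in 52.3% and 48.8% of them, at 45.4 and 40.6 CPM of their summed UMIs, and Nfatc1 in 54.3% and 37.4%. Atp6v0d2 had one in 0.16% and 0.40%. The highest keratin-high barcodes reached 4.50 (irradiated) and 8.29 CP10K (control) of Acp5, and 11.7 CP10K of Nfatc1 in each library. Whether these UMIs were free RNA or transcripts of the keratin-high cells themselves was not tested.

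**Figure D1:**
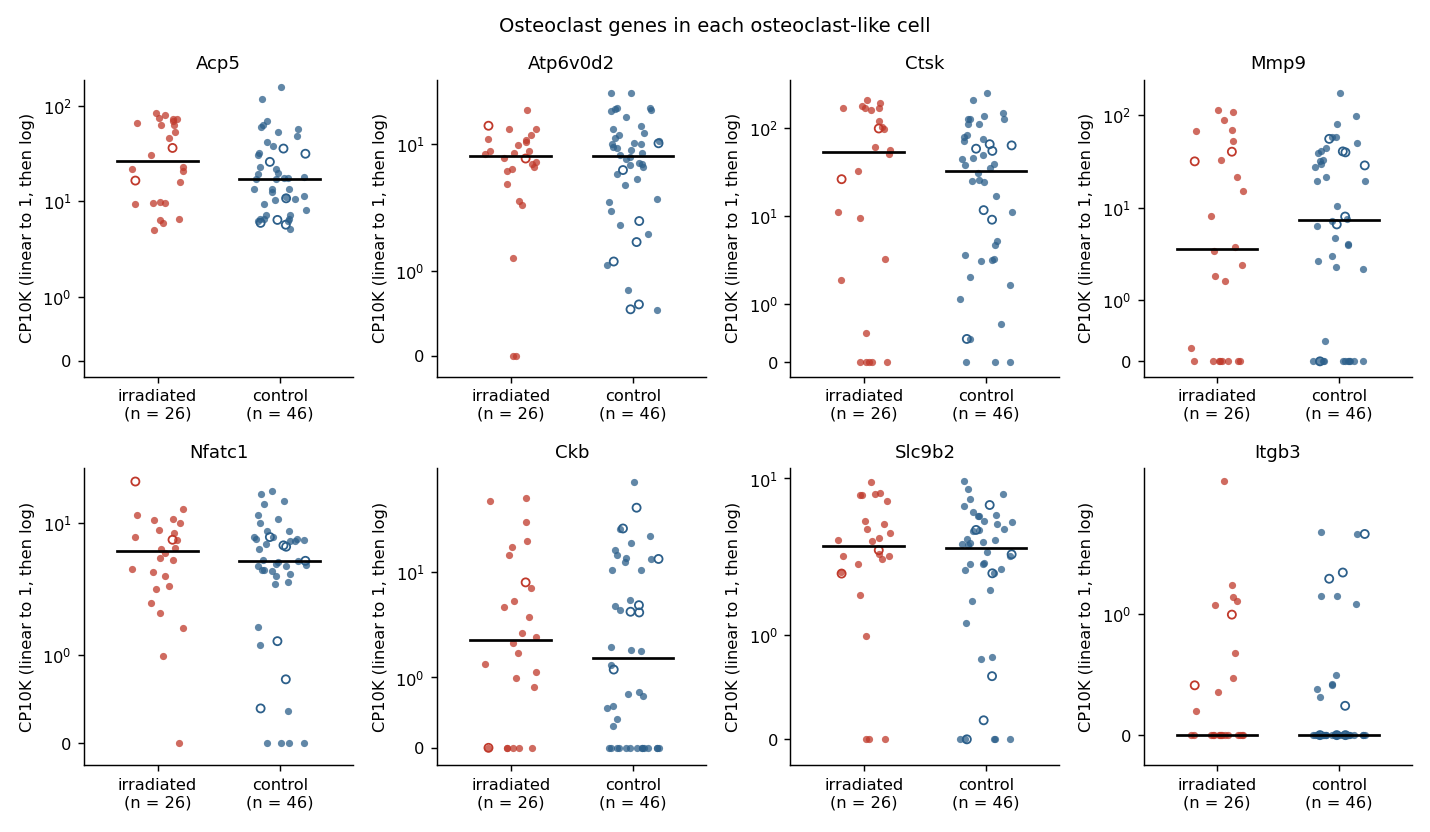
Level of 8 genes in each osteoclast-like cell (y axis, CP10K, linear to 1 and logarithmic above), 26 irradiated cells in red on the left and 46 control cells in blue on the right. Each point is 1 cell, open circles are cells that also carry keratin, collagen or neutrophil genes at 20 CP10K or more, and black lines are medians. The ranges of the libraries overlap for every gene shown, and Ctsk and Mmp9 spread over more than 2 orders of magnitude within each library.

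Members made up 0.362% of kept barcodes in the irradiated library (exact Clopper-Pearson interval 0.236 to 0.529%) and 0.498% in the control library (0.365 to 0.663%). The ratio, irradiated over control, was -0.46 on the log2 scale (-1.21 to 0.26), and this interval of counting error includes equality. The irradiated library held more myeloid barcodes, and of these, members were 26 of 4491, or 0.579% (0.379 to 0.847%), in the irradiated library and 46 of 3556, or 1.29% (0.949 to 1.72%), in the control library. That log2 ratio was -1.16 (-1.91 to -0.44). A share of an unsorted suspension depends on every other cell type in it, so a smaller share cannot be told apart from more of the other cells.

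The neighbours of the limits were few. Just inside the panel limit, at 3 to 4 UMIs, lay 1 irradiated and 2 control members, and just outside, at 2 UMIs, lay 2 and 3 barcodes. Acp5 at 5 to 7 CP10K was found in 4 irradiated and 9 control members, and at 3 to 5 CP10K in 3 and 11 barcodes that met the other limits. A further group of 62 irradiated and 91 control barcodes met the panel with Acp5 under 5 CP10K, with a median Ctsk of 0 in both libraries. In the other direction 61 irradiated and 37 control barcodes had Acp5 but at most 2 panel UMIs.

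Other lineages were present in some members. Keratin (Krt5 and Krt14), collagen (Col1a1 and Col3a1) or neutrophil (S100a8 and S100a9) transcripts at 20 CP10K or more were found in 2 of 26 irradiated and 7 of 46 control members. The collagen genes passed in 0 irradiated members (0 to 13.2%) and in 6 control members (13%, 4.94 to 26.3%). Among other Csf1r-positive cells they passed in 1.80% of irradiated and 8.77% of control cells. All mesenchymal markers summed to a median of 1.02 CP10K (0 to 4.48) in irradiated and 4.21 CP10K (1.46 to 359) in control members. One of these markers, Pdgfra, was at 0 in irradiated members and also in control members without other lineage genes. Keratinocyte markers summed to medians of 1.07 and 3.21 CP10K. The 4 mast cell markers were at 0 in members of both libraries, as were Cd3e and Cd3d of T cells. Scrublet doublet scores above 0.25 were given to 2 irradiated and 2 control members. Because these barcodes bear on the sums, condition ratios are also given without the 2 irradiated and 7 control members.

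Within each library the summed levels of Ctsk, Mmp9, Itgb3 and Nfatc1 were higher in members with more panel UMIs. The panel belongs to the rule, so these values are a description. With 3 to 9, 10 to 29 and 30 or more panel UMIs, Ctsk stood at 1087, 3515 and 11288 CPM in irradiated members, and at 1399, 3688 and 7993 CPM in control members. Over the same bins Mmp9 stood at 0, 1052 and 4074 CPM in irradiated and 1001, 1236 and 3425 CPM in control members. Itgb3 reached 96.1 and 94.2 CPM in the highest bin of each library, against 0 and 14.1 CPM in the lowest. Nfatc1 gave 339, 360 and 854 CPM in irradiated and 247, 675 and 713 CPM in control members. The bins held 5, 6 and 15 irradiated and 12, 20 and 14 control members, and cells with more panel UMIs were also deeper. The lowest irradiated bin rests on 5 cells, 1 with Ctsk at 61.1 CP10K and the others at 0.497 CP10K or less. Per-cell medians of Mmp9 in control members were not ordered, at 5.60, 3.44 and 30.9 CP10K. Ckb gave 117, 579 and 1434 CPM in irradiated but 546, 288 and 920 CPM in control members. Tnfrsf11a gave 175, 254 and 196 CPM in irradiated and 98.6, 275 and 263 CPM in control members.

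Across the cells of each library, Ctsk varied with the acid pump. Its Spearman correlation with the summed V-ATPase subunits, in CP10K, was 0.94 over 26 irradiated and 0.80 over 46 control members. With Mmp9 it was 0.81 and 0.83, with the creatine kinase Ckb 0.82 and 0.62, with Slc9b2 0.57 and 0.68, and with Itgb3 0.69 and 0.57. With Nfatc1 it was weaker, 0.33 and 0.31. With the mitosis genes it was -0.41 and -0.28, and with depth itself 0.43 and 0.09. The cells share a library and its depth, and one of the V-ATPase subunits is part of the rule, so these correlations are a description.

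**Figure D2:**
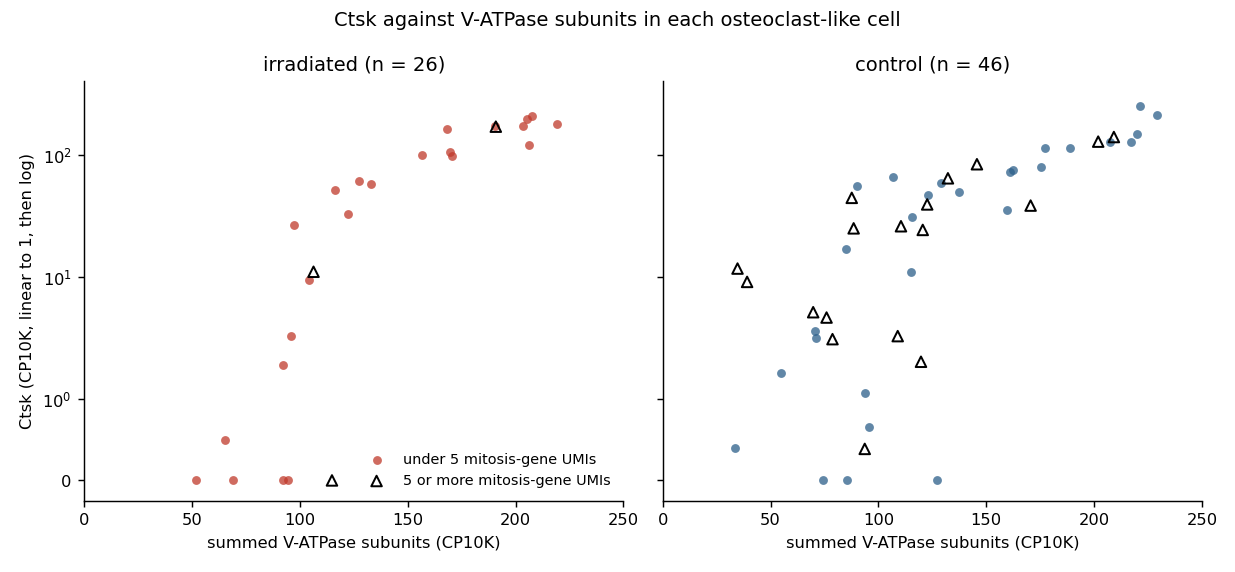
Ctsk (y axis, CP10K, linear to 1 and logarithmic above) against the summed V-ATPase subunits (x axis, CP10K) in each osteoclast-like cell, irradiated on the left and control on the right. Filled points are cells with under 5 UMIs of mitosis genes and triangles are cells with 5 or more, 3 of 26 irradiated and 18 of 46 control members. Cells high in Ctsk are high in V-ATPase subunits in both libraries (Spearman 0.94 and 0.80).

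Against other Csf1r-positive cells of the same library, a gene was called where summed levels differed at least 2-fold and the interval left out equality. Of 13558 genes measured in both libraries, 5.49% were called higher and 10.2% lower in both. The rule chose the cells on this contrast, so these values describe them and test nothing. Beyond the rule genes, the 12 genes farthest above other Csf1r-positive cells were taken from those with at least 100 UMIs over both libraries and cell sets, ranked by the smaller of the ratios in the 2 libraries. That minimum leaves out Oscar, which gave 57.5 CPM in members against 1 UMI in all other Csf1r-positive cells of the irradiated library, and 34.3 CPM against 6 UMIs in the control library. Nyap2, an adaptor of PI3K signalling described in mouse neurons, gave 126 and 46.0 CPM in irradiated and control members, with 0 and 3 UMIs in all other Csf1r-positive cells. Most members lacked it, with a UMI in 9 of 26 irradiated and 10 of 46 control members. Slc9b2, a sodium-proton antiporter that rises during osteoclast formation, gave 440 CPM against 1.29 CPM in the irradiated library and 328 CPM against 2.07 CPM in the control library. Ctsk gave 8647 against 61.7 CPM and 4710 against 86.1 CPM, log2 ratios of 7.13 and 5.77. The group of 12 also held Mmp9, Rufy4, the cytochrome P450 Cyp2s1, the kinase anchor Akap6, the semaphorin receptor Plxna4, Bdh2, Kbtbd11, Coq8a and Dgki, all called in both libraries.

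The 250 bases before the start of 3 of these genes are shown because the genes belong to this group of 12 and were called above other Csf1r-positive cells in both libraries. They come from RefSeq (GRCm38.p6, the assembly also called mm10), 5′ to 3′ on the strand of the gene, which is the plus strand for all 3. Capitals mark GGAAA on either strand, the core that NFAT proteins bind.
Ctsk, chr3:95498960-95499209: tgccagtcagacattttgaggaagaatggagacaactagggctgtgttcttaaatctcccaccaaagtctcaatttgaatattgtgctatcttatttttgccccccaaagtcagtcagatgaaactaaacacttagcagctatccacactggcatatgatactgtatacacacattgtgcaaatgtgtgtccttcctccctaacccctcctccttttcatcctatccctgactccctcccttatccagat
Slc9b2, chr3:135307450-135307699: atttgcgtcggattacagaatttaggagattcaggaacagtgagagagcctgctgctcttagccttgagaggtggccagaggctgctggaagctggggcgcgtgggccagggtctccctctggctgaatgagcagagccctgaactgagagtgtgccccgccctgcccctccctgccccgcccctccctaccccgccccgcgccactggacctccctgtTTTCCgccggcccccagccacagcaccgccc
Nyap2, chr1:81076700-81076949: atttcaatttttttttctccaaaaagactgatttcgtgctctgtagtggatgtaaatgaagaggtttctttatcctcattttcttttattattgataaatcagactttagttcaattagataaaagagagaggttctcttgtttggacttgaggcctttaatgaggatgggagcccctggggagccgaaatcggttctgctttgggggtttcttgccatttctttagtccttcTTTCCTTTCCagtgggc
GGAAA was found in 8 of the 9 genes of this group of 12 that had a promoter entry, and in 55.7% of 32536 promoters of the same length. The AP-1 motif TGANTCA was found in 2 of the 9 and in 6.73% of all, and the MITF motif CATGTG in 0 of the 9 and in 12.3% of all. None of the 3 motifs contains another, and both strands were searched. A match is a string of letters and not a binding site, and the Ctsk window held none of the 3.

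Among the acid-secreting genes, 11 of 17 V-ATPase subunits were higher than in other Csf1r-positive cells in both libraries and 1 was lower, with list medians of 1.35 (irradiated) and 1.18 (control) on the log2 scale, beside medians over all genes of 0.10 and -0.10. Of 11 genes of chloride and proton transport and vesicle delivery, 6 were higher and none lower. Among them, Car2, the carbonic anhydrase that supplies protons, stood at 6.21 and 3.30, and Slc37a2, a sugar-phosphate transporter of secretory lysosomes, at 2.71 and 2.34. Of 18 creatine, mitochondrial and iron genes, 10 were higher and none lower, including Ckb at 3.61 and 3.47. Transcription factors were mixed. Nfatc1 stood at 3.84 and 3.29, Ppargc1b, a coactivator of mitochondrial biogenesis, at 4.74 and 4.42, and the AP-1 factor Jdp2 at 2.73 and 2.85, whereas 2 of the 18 factors were lower. Of 10 repressors of osteoclast formation, 7 were lower and none higher. Other osteoclast lists were not higher as a whole. In the attachment list 5 of 19 genes were higher and 1 lower in both, with medians of 0.38 and -0.02. The kinase Src (3.14 and 2.82) and Itgb3 (4.05 and 2.69) were among the 5. Of 12 fusion genes outside the rule, 1 was higher and 2 lower (medians -0.73 and -0.59). Of 13 protease genes, 2 were higher and 3 lower (medians -0.15 and -0.11). Of 18 RANK and CSF1 signalling genes, 2 were higher and 2 lower (medians 0.25 and -0.22). Tnfrsf11a, the receptor RANK, was higher at 1.14 and 2.01.

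In the sums over members, macrophage and monocyte genes were lower. Of 15 macrophage genes 13 were lower in both libraries and none higher, with medians of -2.88 and -2.58, and of 10 monocyte genes 9 were lower, with medians of -3.52 and -3.36. The genes farthest below other Csf1r-positive cells included the monocyte gene Plac8 (-7.52 and -5.07) and the chemokine genes Ccl8 (-6.20 and -5.54) and Ccl2 (-6.92 and -4.73). Ccl2 was at 0 UMIs in irradiated members, so its first value is computed against the floor of 3 UMIs and bounds the difference. Single members departed from this. The macrophage list summed to 2.25 to 191 CP10K (median 8.99) in irradiated and 1.92 to 257 CP10K (median 10.1) in control members. The irradiated cell at 191 CP10K also had 230 CP10K of monocyte genes, no Nfatc1 UMI and Acp5 near the limit, at 6.53 CP10K. This same cell held the most UMIs of Spp1, Arg1, Ctsl and Mmp12 in the irradiated library. A control cell with 125 CP10K of macrophage and 182 CP10K of monocyte genes, also without an Nfatc1 UMI, held the most Spp1 and Ctsl in the control library. Class II presentation genes (8 of 9 lower, medians -2.62 and -2.63) and inflammatory mediators (17 of 20 lower and 1 higher, medians -2.89 and -2.23) were also lower.

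**Figure D3:**
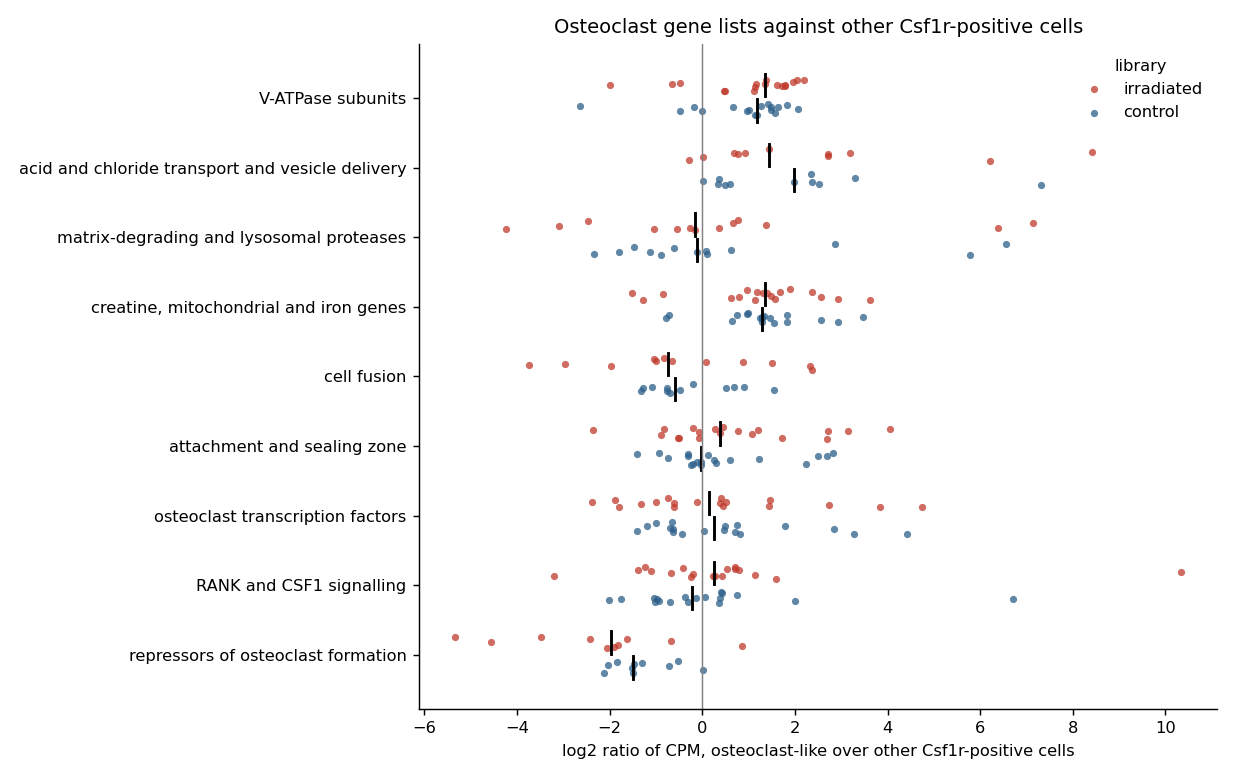
Log2 ratio of CPM in osteoclast-like over other Csf1r-positive cells (x axis) for the genes of 9 osteoclast lists (y axis), rule genes left out. Each point is a gene, red in the irradiated and blue in the control library, and black bars are medians. V-ATPase subunits lie mostly to the right of 0 (medians 1.35 and 1.18) and repressors of osteoclast formation to the left (medians -1.98 and -1.49).

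Between irradiated and control members, a gene was called where the summed CPM differed at least 1.5-fold and the interval left out equality, among 8065 genes with at least 20 UMIs. The irradiated members had 520 genes higher (6.45%) and 869 lower (10.8%), with a median log2 ratio of -0.08 over all genes. Scaling by a trimmed mean instead of the total turned this split to 687 higher and 717 lower, since it moves each ratio up by 0.08. Because sums over few cells can rest on 1 barcode, a stricter call, chosen after the data were seen, also had to hold without the members that carry other lineage genes, and then without the highest cell of each gene in each library. It left 252 genes higher (3.12%) and 331 lower (4.10%), and is called the strict call below. More than 50% of the UMIs of 1 library lay in 1 cell for 41 of the higher and 75 of the lower genes.

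Ctsk, Acp5 and Mmp9 were higher in sum in irradiated members, and the ratios were smaller without the deepest cells. Acp5 belongs to the rule, so its values only describe the members. Ctsk gave 6463 UMIs (8647 CPM) in irradiated and 5219 UMIs (4710 CPM) in control members, a log2 ratio of 0.88 (0.82 to 0.93). Acp5 stood at 0.90 (0.82 to 0.98), and Mmp9, at 3034 CPM in irradiated and 1993 CPM in control members, at 0.61 (0.52 to 0.69). Ctsk and Acp5 held under the strict call and Mmp9 did not. With members above 40000 UMIs left out, 20 irradiated and 43 control members remained. The ratios dropped to 0.22 for Ctsk, 0.38 for Acp5 and 0.06 for Mmp9, all short of the call. This limit acts unevenly. Members without other lineage genes reached 50153 UMIs in the irradiated but only 34763 UMIs in the control library, so all control members it left out carried other lineage genes. Among members without such genes, the median of Ctsk was 54.2 CP10K in irradiated and 30.7 CP10K in control cells. With each cell weighted alike Ctsk stood at 0.54, Acp5 at 0.48 and Mmp9 at 0.15, and the per-cell median of Mmp9 was lower in irradiated members. The single-cell ranges of all 3 overlap between the libraries.

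Of 12 genes of proteases and their inhibitors measured, Ctsk and Mmp9 included, 5 were higher and 2 lower (median 0.40). Cst3, cystatin C, ran from 2.79 to 24 CP10K (median 14.8) in irradiated and from 1.03 to 23.2 CP10K (median 7.86) in control members, a log2 ratio of 0.68 (0.56 to 0.81) that held under the strict call, and 24 of 26 irradiated members lay above the control median. Its ratio in other Csf1r-positive cells was 0.72. The membrane metalloprotease Mmp14 was higher at 0.61 (0.44 to 0.77) and also held. Ctsl, cathepsin L, gave 1.85, but 59.4% of its irradiated UMIs lay in 1 cell. Mmp12, macrophage elastase, was lower at -1.10, with UMIs in only 5 members of each library, 98.1% of the irradiated ones in 1 cell. The lysosomal Ctsh was lower at -0.72, but stood at 0.16 where members needed Acp5 at 10 CP10K.

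The acid pump and transport genes differed little. Of 17 V-ATPase subunits, 1 was higher, Tcirg1, at 360 CPM in irradiated and 222 CPM in control members (log2 ratio 0.70, 0.44 to 0.95), and it did not hold under the strict call and stood at -0.14 when cells were thinned to 5000 UMIs. The list median was 0.31 with all members, 0.12 without the other-lineage barcodes and -0.01 without members above 40000 UMIs. Atp6v0d2 was level at -0.01 (-0.16 to 0.13). Slc37a2 was higher at 0.73 (0.53 to 0.93), without holding under the strict call. Car2 was lower at -0.63 (-1.09 to -0.17) and held, with UMIs in 15 of 26 irradiated and 30 of 46 control members. Its UMIs were also seen in 4.96% of irradiated and 16.9% of control keratin-high barcodes, and in other Csf1r-positive cells its ratio was -3.53. The highest keratin-high barcodes reached 12.3 (irradiated) and 22.9 CP10K (control) of Car2, above the highest members at 4.39 and 7.21 CP10K. Whether these UMIs were free RNA, and the part of free RNA in the members' Car2 ratio, was not tested.

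Of 15 RANK and CSF1 signalling genes, 6 were higher and 1 lower (median 0.48, and 0.27 without the other-lineage barcodes). Trem2, a lipid-sensing receptor that signals through an ITAM adaptor, gave 254 CPM in irradiated and 127 CPM in control members, a log2 ratio of 1.00 (0.68 to 1.32) that held. Oscar, an ITAM-coupled collagen receptor, was higher at 0.75 (0.08 to 1.42) and held as well, but stood at -0.45 without members above 40000 UMIs. Tnfrsf1a, the TNF receptor, was lower at -1.07 (-1.69 to -0.50), with 33 UMIs in irradiated and 103 in control members, and held. In other Csf1r-positive cells its ratio was 0.01. Tnfrsf11a itself was at 205 CPM in irradiated and 226 CPM in control members, a ratio of -0.14 (-0.44 to 0.16).

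Transcription factors of the lineage were close to level. Of 17 measured, Esrra, a nuclear receptor of mitochondrial genes, was higher at 0.74 (0.09 to 1.39), and Jun was lower. Nfatc1 stood at 0.28 (0.11 to 0.44), and at -0.05 without the other-lineage barcodes. Ppargc1b stood at 0.00, Spi1, which encodes PU.1, at 0.29 and Mitf at 0.43, none of them called. Of 10 repressors, 1 was higher and 3 lower (median -0.19).

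Fusion and attachment genes were mixed. Of 14 fusion genes 4 were higher and 3 lower. Ocstamp was higher at 0.78 (0.44 to 1.12) and Dcstamp at 0.74 (0.34 to 1.13), but both belong to the rule, and Dcstamp stood at -0.22 without members above 40000 UMIs. Adam8, a metalloprotease that promotes fusion, was higher at 1.19 (0.68 to 1.70), and Sirpa, the CD47 receptor, was lower at -0.59 (-0.87 to -0.32), and both held under the strict call. Adam12 and Cd81 were called lower but did not hold, and without the other-lineage barcodes Adam12 was too low in both libraries for a ratio. Of 19 attachment genes 5 were higher and 1 lower, and none held under the strict call. Itgb3 stood at 0.63 (0.03 to 1.22), with 43.1% of its irradiated UMIs in 1 cell, and at -0.44 without members above 40000 UMIs. Among 16 creatine, mitochondrial and iron genes, Ckb (0.93, 0.78 to 1.08) and the glycolytic Hk2 (0.78, 0.40 to 1.17) were higher and Tfam lower. Ckb stood at -0.12 without members above 40000 UMIs.

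Among secreted factors the endothelial growth factor gene differed in most cells. Vegfa had a UMI in 25 of 26 irradiated members (0 to 12.9 CP10K, median 1.71) and in 29 of 46 control members (0 to 10.3 CP10K, median 0.506), and 23 of 26 irradiated members lay above the control median. The log2 ratio of its sums was 1.35 (1.00 to 1.70) and held under the strict call, dropping to 0.51 where members needed Acp5 at 10 CP10K. In other Csf1r-positive cells it was 0.91. Of 14 such genes 5 were higher and 5 lower (median 0.47), and Pdgfa was the other higher gene that held (0.68, 0.16 to 1.20). Nrp1, a receptor for VEGF and semaphorins, gave 3 UMIs in irradiated and 60 UMIs in control members, a log2 ratio of -3.75 (-6.07 to -2.14) that held. Igf1, with 1 UMI in irradiated and 122 in control members (-6.36, -11.7 to -3.86), and Cthrc1, with 2 and 129 (-5.44, -8.50 to -3.56), were also lower but did not hold. Spp1, osteopontin, was higher at 1.61, with 70.3% of its irradiated UMIs in 1 cell.

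Class I antigen presentation, which displays peptides to CD8 T cells, was higher in every irradiated member than in the median control member. Of 17 genes 12 were higher and none lower in irradiated members, and 9 held under the strict call. The list median was 0.94, and 0.64 without the other-lineage barcodes. The sum over the list ran from 37.5 to 106 CP10K (median 65.7) in irradiated and from 5.47 to 77.5 CP10K (median 33.4) in control members. All 26 irradiated members lay above the control median, and 27 of 46 control members lay below the lowest irradiated one. B2m, the class I light chain, ran from 10.5 to 30.2 CP10K (median 21.1) in irradiated and from 2.35 to 34.1 CP10K (median 8.45) in control members, a log2 ratio of 1.23 (1.11 to 1.35). H2-D1, a heavy chain, gave 1.02 (0.89 to 1.15) and H2-T23, a non-classical class I gene, 1.42 (0.96 to 1.89). H2-Q7 gave 1.36, but it shares near-identical copies in its gene family, so its reads may be split among them. B2m and H2-D1 were picked for this account after their values were seen. The list median in other Csf1r-positive cells was 1.02. In keratin-high barcodes B2m gave 623 (irradiated) and 170 CPM (control), beside 1999 and 853 CPM in members. The part of free RNA in the members' B2m ratio was not tested.

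Interferon-stimulated genes were higher as well. Of 22 listed, 13 were measured, 10 were higher and none lower (median 1.67), and 8 held under the strict call. The list sum ran from 2.13 to 36.8 CP10K (median 11.8) in irradiated and from 0 to 19.4 CP10K (median 2.49) in control members, and 23 of 26 irradiated members lay above the control median. Isg15, a ubiquitin-like antiviral protein, gave 162 UMIs in 20 irradiated members and 27 UMIs in 17 control members, a log2 ratio of 3.15 (2.56 to 3.8). Irf7, the factor that drives type I interferon genes, gave 54 UMIs in 18 irradiated and 5 UMIs in 3 control members (log2 ratio 4.0, 2.69 to 5.68), and the nucleic acid sensor Zbp1 gave 42 and 5 UMIs (3.64, 2.30 to 5.33). After thinning to 5000 UMIs, Isg15 was seen in 38.5% of irradiated and 6.82% of control members. In keratin-high barcodes Isg15 had a UMI in 31.2% of irradiated and 5.89% of control ones (44.1 and 5.29 CPM), beside 217 and 24.4 CPM in members. Whether these were free RNA, and the part of free RNA in the members' ratio, was not tested. In other Csf1r-positive cells, where 7.84% of 15642 genes were called higher and 25.5% lower, all 21 interferon genes measured were higher (median 1.97). Of 21 interferon genes measured, 16 were lower in members than in other Csf1r-positive cells in both libraries.

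**Figure D4:**
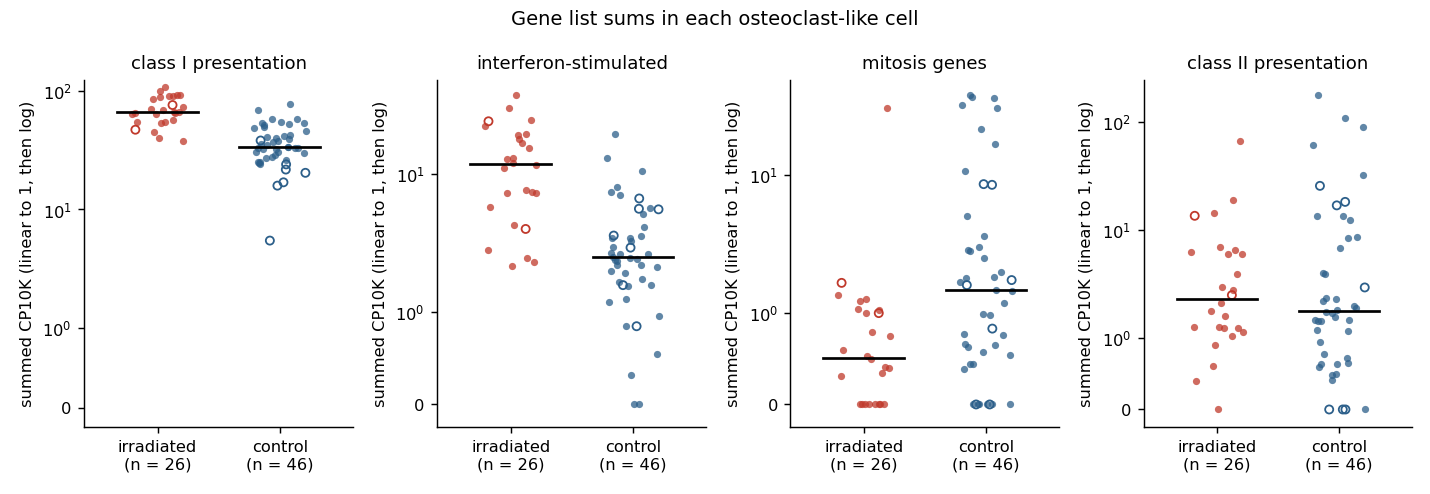
Summed CP10K of 4 gene lists (y axis, linear to 1 and logarithmic above) in each osteoclast-like cell, 26 irradiated on the left in red and 46 control on the right in blue. Open circles are cells that also carry other lineage genes, and black lines are medians. Class I sums of all 26 irradiated cells and interferon sums of 23 of 26 lie above the control median, and the class II medians are 2.30 and 1.77.

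Mitosis genes were lower in irradiated members. Of 20 listed 17 were measured, none was higher and 15 were lower (median -2.02), and 14 held under the strict call. At least 5 UMIs of the list were found in 3 of 26 irradiated members (11.5%, 2.45 to 30.2%) and in 18 of 46 control members (39.1%, 25.1 to 54.6%). At 20 UMIs or more the counts were 1 of 26 (3.85%) and 10 of 46 (21.7%, 10.9 to 36.4%). After thinning to 5000 UMIs, 2 or more mitosis UMIs were found in 1 of 26 irradiated (3.85%, 0.10 to 19.6%) and 15 of 44 control members (34.1%, 20.5 to 49.9%), against 50% and 65.2% without thinning. Top2a, topoisomerase II, gave 16 UMIs in irradiated and 106 in control members (-2.16, -3.02 to -1.39). Birc5, survivin, gave 9 UMIs, all in 1 irradiated cell, and 107 UMIs in 16 control cells (-3.00, -4.17 to -2.02).

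The control cells with mitosis transcripts were spread over the panel bins. By bin, 5 or more mitosis UMIs were found in 0 of 5, 0 of 6 and 3 of 15 irradiated members, and in 3 of 12, 7 of 20 and 8 of 14 control members. The panel belongs to the rule and cells with more panel UMIs were deeper, so this is a description. Ctsk, outside the rule, ran from 0.387 to 44.3 CP10K in the 10 control cells with 20 or more mitosis UMIs. Its median over all control members was 32.8 CP10K. The cells among these 10 with 54817 and 82596 UMIs also carried other lineage genes. The irradiated cell with the most, 106 UMIs, had no Ctsk UMI and 32.2 CP10K of Cd74. Among other Csf1r-positive cells 2.84% of irradiated and 7.40% of control cells reached 5 UMIs, and all 18 genes called there were lower (median -1.54). The difference between the members and other Csf1r-positive cells in the size of the drop was not tested.

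Class II presentation genes were lower in sum. Of 6 genes measured none was higher and 4 were lower in irradiated members (median -0.94), and all 4 held. Cd74, the invariant chain, gave 352 CPM in irradiated and 613 CPM in control members, a log2 ratio of -0.80 (-1.01 to -0.59), beside 0.65 in other Csf1r-positive cells. H2-Eb1 gave -2.54 (-3.12 to -2.00) and H2-Aa -1.54 (-1.91 to -1.20), beside 0.43 and 0.37. In those cells 1 of 9 class II genes was called higher and none lower (median 0.38), and the difference between the cell types was not tested. These UMIs lay in few cells, 60.2% of the irradiated and 42.6% of the control H2-Aa UMIs in 1 cell each. The list sum per cell had a median of 2.30 CP10K (0 to 66.9) in irradiated and 1.77 CP10K (0 to 178) in control members, which is not lower in irradiated members, and the list median stood at -0.10 where members needed Acp5 at 10 CP10K.

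Inflammatory mediators were higher in sum, with 9 of 14 genes higher and 2 lower (median 1.00) and 4 holding under the strict call. Cxcl2, a neutrophil chemokine, gave 827 CPM in irradiated and 150 CPM in control members (2.46, 2.22 to 2.72), with 51.8% and 45.2% of the UMIs in 1 cell, and held. Ccl4 gave 2.50, with 95.2% of the irradiated UMIs in 1 cell, and stood at -1.16 without the highest cells. In other Csf1r-positive cells 18 of 20 were higher (median 1.30).

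Of 16 p53 targets measured, 2 were higher and 2 lower (median -0.02). Mdm2, the ubiquitin ligase that restrains p53, ran from 0.225 to 10.9 CP10K (median 3.16) in irradiated and from 0 to 10.6 CP10K (median 1.53) in control members. Its log2 ratio was 1.05 (0.77 to 1.33) and held, close to 1.01 in other Csf1r-positive cells. Cdkn1a, the cell cycle inhibitor p21, was not called, at 140 CPM in irradiated and 106 CPM in control members (0.40, 0.01 to 0.79), beside 1.02 in other Csf1r-positive cells. Whether the members and the other cells differ in Cdkn1a was not tested.

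Collagen and matrix transcripts were far lower in irradiated members. Col1a1 gave 14 UMIs in irradiated and 2106 UMIs in control members (-6.66, -7.54 to -5.92), Col3a1 stood at -5.41 and Sparc at -7.08. Without the other-lineage barcodes these ratios were -2.53, -1.98 and -2.73. In other Csf1r-positive cells Col1a1 was at 1013 CPM in irradiated and 3239 CPM in control cells, a ratio of -1.68. The part of stromal RNA in these members' ratios was not tested.

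**Figure D5:**
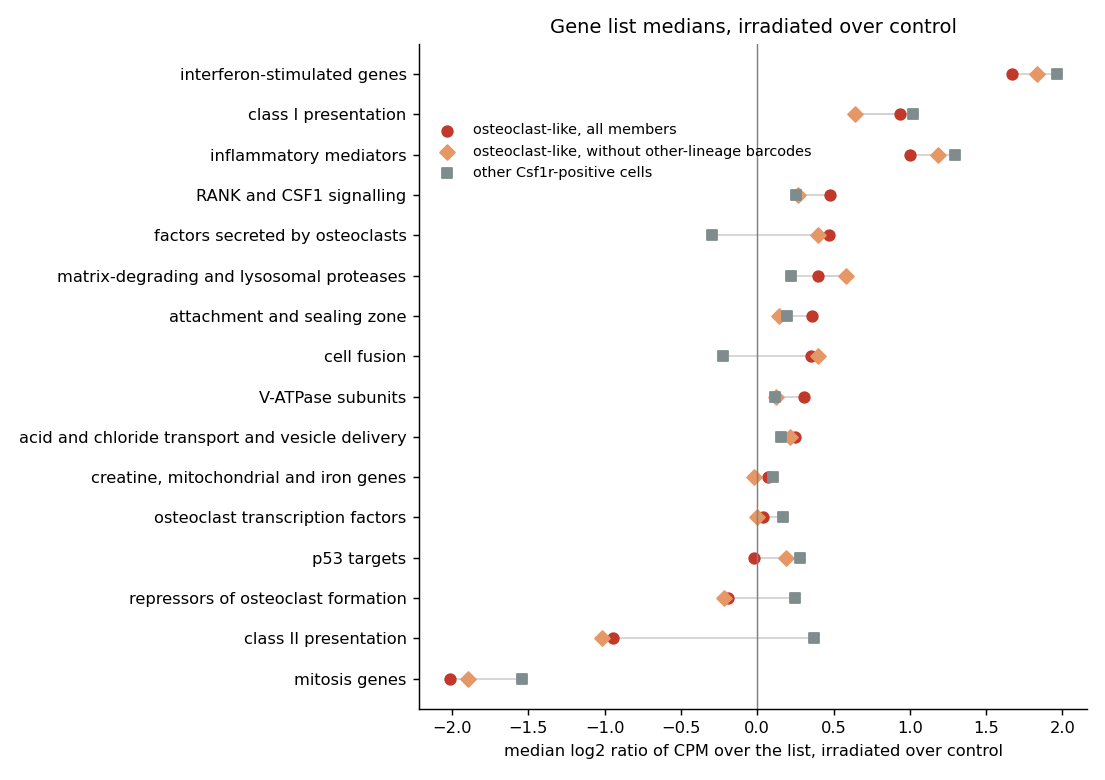
Median log2 ratio of CPM, irradiated over control (x axis), over the measured genes of 16 lists (y axis). Circles are all osteoclast-like cells, diamonds those without the 2 irradiated and 7 control barcodes carrying other lineage genes, and squares other Csf1r-positive cells. Interferon (1.67), inflammatory (1.00) and class I (0.94) genes lie highest and mitosis genes (-2.02) lowest in osteoclast-like cells, and class II genes lie on the other side of 0 from other Csf1r-positive cells (-0.94 and 0.38).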

How the data were processed

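Raw UMI counts per gene and barcode of 2 10x 3' v3 libraries were used as deposited by the authors, who made them with Cell Ranger (version 5 per the submitters' processing notes, 5.0.1 per the file headers) against mm10. The lowest total of a deposited barcode was 500 UMIs, and further filters are not given in the sources used here. Members, gene lists and most alternatives were chosen with earlier results of these data known, so the lists are no independent evidence.

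UMIs were summed over the members of each library and scaled to CPM, or to CP10K within a cell. Ratios are log2 of CPM with exact conditional Poisson intervals, against a floor of 3 UMIs where a sum was 0. Shares have exact Clopper-Pearson intervals. Intervals cover counting error only, and variation between mice cannot be measured with 1 library per group. The ratio calculation was checked on simulated Poisson counts. These had no variation between cells, so the check does not bear on sums that rest on few cells. Doublets were not removed, and Scrublet (scanpy 1.11.5, anndata 0.12.19) served as an alternative with 1 threshold, 0.25, in both libraries. Python 3.11.15, numpy 2.4.6, scipy 1.17.1, pandas 2.3.3 and matplotlib 3.10.9 were used.

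Named were the rule genes, members of the osteoclast lists, the 12 called genes in each direction farthest from equality, the 12 farthest from other Csf1r-positive cells in each direction, up to 4 genes of each other list with the widest ratios, and up to 10 genes called in opposite directions in members and other Csf1r-positive cells. Of these the text gives a part. Genes named outside the rule are B2m, H2-D1 and Cdkn1a.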

Additional observations from a re-analysis of the deposited data

Results flagged for a closer look

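These 10 genes were called in one direction in irradiated over control osteoclast-like cells and in the other direction in other Csf1r-positive cells, a difference between the cell types that was not tested. They are the widest of 60 such genes, and 25 of the 60 hold without other-lineage barcodes and without the highest cell of each gene. Of the 10, 3 hold. Vegfc, a lymphatic growth factor, gave 1.91 on the log2 scale in osteoclast-like and -1.60 in other Csf1r-positive cells, Gmpr, a nucleotide reductase, 1.57 and -1.49, and Tiam2, a Rac exchange factor, 1.39 and -1.59. Vegfc rested on 38 UMIs in 12 irradiated and 15 UMIs in 10 control members.

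The other 7 do not hold. Adgrl3 gave 2.81 and -1.65, with 98.1% of its irradiated UMIs in 1 cell. Nkain1 gave 2.15 and -1.62, Dctd 1.46 and -1.50, Fgl2 -2.02 and 1.55, and AA467197 -1.36 and 2.73. Cxcl9 (-2.49 and 2.01) and Ppbp (-3.02 and 1.22) had 0 UMIs in irradiated osteoclast-like cells, so their first values are computed against the floor of 3 UMIs and bound the difference, and their control UMIs lay in 1 and 2 cells.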

How the results depend on the processing

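Limits: 26 irradiated and 46 control cells, 1 library each, so that a ratio can rest on 1 cell. No paired analysis was possible because each group has 1 library and no test was made, and for the same reason no library could be left out. Leaving out the highest cell of each gene was an alternative chosen after seeing the data. Of 107 main values recomputed, 97 stayed within 1.5 times or kept their direction and size, and 10 moved. The main count of 869 lower genes became 559 with Acp5 at 10 CP10K, 498 without members above 40000 UMIs and 530 without other-lineage barcodes. Without these and the highest cells, 334 genes were higher. Genes with at least 100 UMIs gave 269 higher and 249 lower. Thinning to 5000 UMIs gave 173 higher and 161 lower, and 924 (irradiated) and 1033 (control) genes lower than in other Csf1r-positive cells; fewer UMIs leave fewer genes measured. Of 1341 recomputed ratios of 104 named genes, 1102 were close to the main value, 226 moved and 13 turned the direction of a called gene; 51 crossed 0 in all, called or not. Without members above 40000 UMIs, Cd109 stood at -0.23, Ckb at -0.12, Cyp2s1 at -0.29, Dcstamp at -0.22, Itgb3 at -0.44, Oscar at -0.45 and Pstpip1 at -0.14. Dcstamp stood at -0.0914 with at most 5% mitochondrial UMIs, Ctsh at 0.16 with Acp5 at 10 CP10K, Mrc1 at 0.0275 without other-lineage barcodes, Tcirg1 at -0.14 after thinning, and Adgrl3 at -2.27 and Ccl4 at -1.16 without the highest cells. Of 307 recomputed list medians 47 moved and 41, in 10 lists, crossed 0. The macrophage median of -0.17 stood at 0.52 without other-lineage barcodes and 1.22 with Acp5 at 10 CP10K, the monocyte median of -0.33 at 0.79 without members above 40000 UMIs, the keratinocyte median of -1.46 at 1.07 with Acp5 at 10 CP10K and the neutrophil median of 1.42 at -0.55 without Scrublet scores above 0.25. The mitosis list gave no median after thinning. The cause of these shifts was not tested.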

Other observations

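Lipid-handling and giant cell genes, which foreign body and tumour-associated giant cells share with osteoclasts, did not move as a group: of 14 measured 3 were higher (Trem2, Spp1 and Arg1) and 4 lower (Fabp5, Fabp4, Cd36 and Mmp12) in irradiated over control osteoclast-like cells. Arg1, arginase 1, gave 348 UMIs in 14 irradiated and 40 UMIs in 8 control members (log2 ratio 3.69, 3.21 to 4.20), with 65.2% and 55.0% of them in 1 cell. Lyz2, lysozyme, gave -1.12, with 91.7% of its irradiated UMIs in 1 cell.

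Ligands of osteoclast formation were read in stromal barcodes, with no comparison of sources. In these, 623 irradiated and 2566 control, Tnfsf11, which encodes RANKL, stood at 44.5 CPM in irradiated and 58.7 CPM in control cells, and its decoy receptor Tnfrsf11b at 15.2 and 8.15 CPM. Csf1 stood at 74.3 and 27.1 CPM and Il34, the other CSF1 receptor ligand, at 28.1 and 15.2 CPM. The members themselves gave 16 and 6 UMIs of Csf1 (irradiated and control, 87.5% of the irradiated ones in 1 cell), 4 and 6 of Il34 and 1 and 2 of Tnfsf11.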
